A study of Rattus norvegicus with 6 samples.

Results

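The insulin-like growth factor family was read in the hippocampus of young rats after noise, as 10 genes out of the 29489 transcript clusters on the array. A transcript cluster is a set of short probes that usually reads 1 gene. The 10 genes were the growth factors Igf1 and Igf2, the receptors Igf1r and Igf2r, the adaptor Irs1, and the binding proteins Igfbp2, Igfbp3, Igfbp4, Igfbp5 and Igfbp6. Every one of the 10 had a cluster with its own symbol. Igf2 had 2 clusters, so that 11 clusters carried a symbol of the family. Each gene was read from its brightest cluster, and the second cluster of Igf2 is given apart. The family was chosen by the differences between noise and control on these same arrays, which are therefore a description and carry no test.

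Total RNA was hybridised to 6 Affymetrix Rat Gene 2.0 ST arrays, 3 for each group. All animals were 3-week-old female Sprague–Dawley (SD) rats. The noise group received white noise for 4 hours on each of 3 days at 115 dB SPL, and the control group stayed in an identical chamber without that noise. All rats of both groups were anaesthetised with Zoletil and xylazine for a hearing measurement some hours before the tissue was taken. The RNA of 2 rats was combined for each array, and replicate error here is therefore error between such pools. The labels name the tissue only as hippocampus, whereas the methods describe a dissection around dorsal CA3 with the adjoining CA2 and dentate gyrus. Array numbers are those of the labels: the control group holds 1, 2 and 6, the noise group 2, 3 and 4.

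Igf1 and Igf2 are small secreted hormones that signal growth and survival through the tyrosine kinase receptor Igf1r. Irs1 docks on that receptor and on the insulin receptor and passes the signal to PI3K, Akt and mTOR. Igf2r, also known as the mannose-6-phosphate receptor, takes up Igf2 for degradation and does not signal as a kinase. The binding proteins hold the growth factors outside the cell and can block or prolong their action. In the rodent brain Igf2 is an imprinted gene known for its expression in the choroid plexus and the meninges, and it has been studied in hippocampal memory. Igfbp2 is also made by the choroid plexus, and by astrocytes.

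Igf2 is the gene with the largest difference among the 10, and its sequence context is given first. RefSeq lists 2 start windows for rat Igf2 on assembly GRCr8, each from 250 bases before to 50 bases after a start site. The 2 Igf2 clusters read below could not be placed on the gene, so that neither can be assigned to a window. The first window lies at chr1:207253931-207254230 and the second at chr1:207250426-207250725, both on the minus strand. Capitals mark the GC box GGGCGG, or CCGCCC where it is on the other strand.
Igf2 window 1: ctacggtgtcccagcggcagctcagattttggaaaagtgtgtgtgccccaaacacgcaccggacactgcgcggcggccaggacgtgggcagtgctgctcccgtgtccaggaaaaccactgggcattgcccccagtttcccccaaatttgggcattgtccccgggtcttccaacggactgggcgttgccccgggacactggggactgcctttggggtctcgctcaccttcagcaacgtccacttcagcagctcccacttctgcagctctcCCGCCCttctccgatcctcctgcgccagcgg
Igf2 window 2: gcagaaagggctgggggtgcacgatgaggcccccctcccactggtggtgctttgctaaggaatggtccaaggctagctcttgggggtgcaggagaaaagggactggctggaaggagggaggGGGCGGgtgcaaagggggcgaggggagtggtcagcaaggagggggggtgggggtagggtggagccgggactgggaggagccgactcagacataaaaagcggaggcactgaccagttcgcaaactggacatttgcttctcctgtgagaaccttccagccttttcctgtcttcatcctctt

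Each Igf2 window held 1 GC box. Of the 11 windows of the family, 6 held it on either strand, against 33.1% of all 33469 rat windows of the same length. These were windows of Igf1r, Igf2, Igf2r, Igfbp2 and Irs1. The E-box CACGTG, which reads the same on both strands, was found for Igf1r, Igf2r and Igfbp2 and in 6.42% of all windows. TATAAA, with TTTATA on the other strand, was found for Igfbp4 alone of the 10 genes and in 14.2% of all windows. By their letters the GC box and the E-box can share an end base, and TATAAA can overlap neither. These are matches of letters and say nothing of a factor at the site.

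Igf2 was lower in the noise group, and no noise array reached the lowest control array. Its log2 values were 8.47, 7.69 and 7.91 on control 1, 2 and 6, and 7.12, 7.36 and 7.20 on noise 2, 3 and 4. Control 1 was the brightest and the noise arrays lay close together, with means of 8.02 ± 0.40 (SD, n = 3) for control and 7.23 ± 0.12 (SD, n = 3) for noise. The log2 difference, noise minus control, was -0.80 with a standard error of 0.20 and a 95% interval from -1.25 to -0.34, or a level 1.74-fold lower. Of all clusters on the array, 0.397% had a log2 difference at or below that of Igf2. In tissue RNA of this kind, fewer cells that express a gene and less RNA per cell cannot be told apart. Without control 1 the difference of Igf2 was -0.58, which is just short of 1.5-fold.

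The second cluster of Igf2 did not separate the groups. It had log2 values of 4.84, 4.21 and 4.24 on control 1, 2 and 6, and 4.13, 4.21 and 4.26 on noise 2, 3 and 4. Control 1 stood 0.61 above the mean of the other control arrays on the log2 scale, and the other 5 arrays lay together. The log2 difference was -0.23 with a standard error of 0.17, and it was -0.03 without control 1. This cluster was dim: 35.6% of clusters had a lower mean, against 89.0% for the first cluster of Igf2. The mean over both clusters gave a log2 difference of -0.51.

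Igf1 did not separate the groups, and the interval of its difference included 0. The log2 values of Igf1 were 6.29, 6.09 and 6.08 on control 1, 2 and 6, and 6.24, 6.35 and 6.27 on noise 2, 3 and 4. The noise arrays lay within or just above the range of the control arrays, and the groups overlapped. The log2 difference was 0.14 with a standard error of 0.10 and a 95% interval from -0.10 to 0.37.

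**Figure D1:**
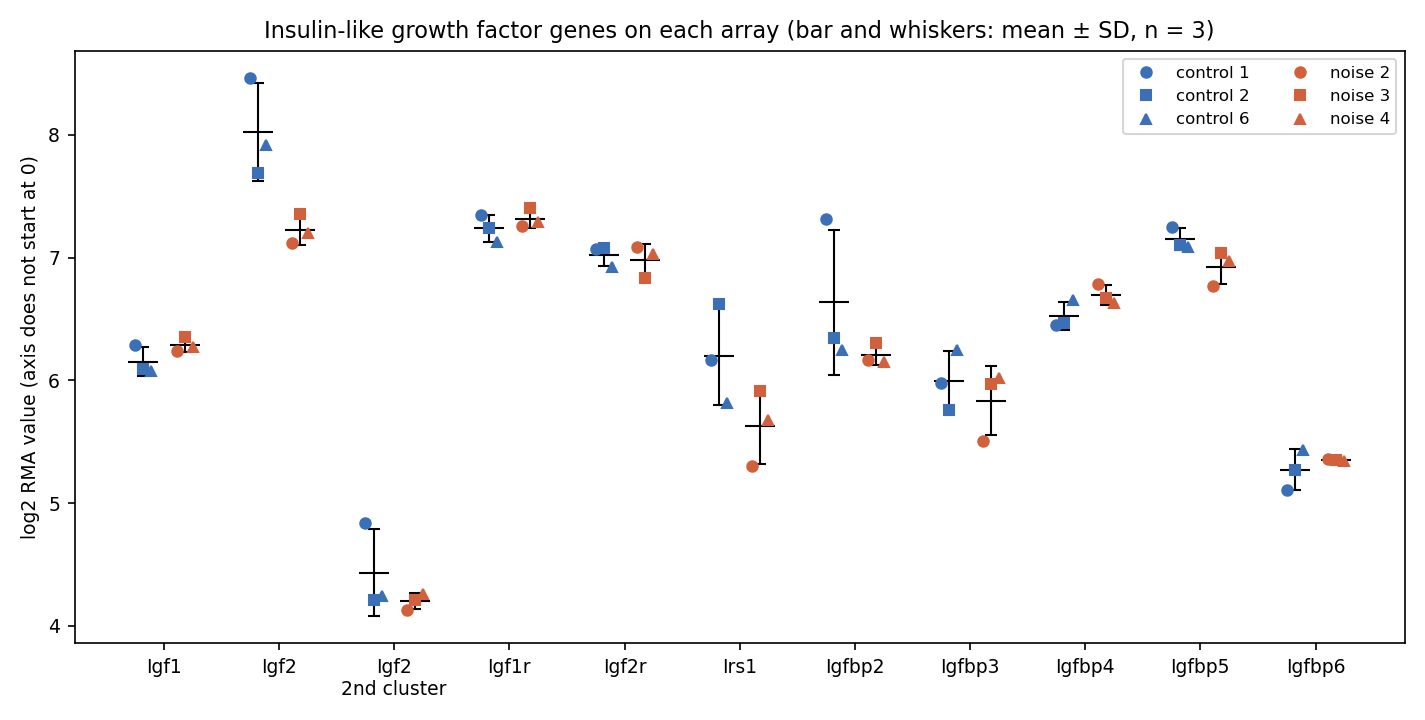
Log2 RMA values (vertical axis, which does not start at 0) of the 10 genes and the second Igf2 cluster on each array, control in blue and noise in red, with the mean and SD of 3 arrays. Igf2 lies between 7.69 and 8.47 on the control arrays and between 7.12 and 7.36 on the noise arrays, and Igfbp2 is high on control 1 alone, at 7.32. Levels of different genes are not comparable, since each has its own probes.

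Neither receptor separated the groups. Igf1r, which carries the signal of both growth factors, was at 7.35, 7.24 and 7.12 on control 1, 2 and 6, and at 7.26, 7.40 and 7.29 on noise 2, 3 and 4, on the log2 scale. These values overlapped, with a log2 difference of 0.08, a standard error of 0.10 and a 95% interval from -0.16 to 0.31. Igf2r, the clearance receptor, was at 7.07, 7.08 and 6.92 on the control arrays and at 7.08, 6.84 and 7.03 on the noise arrays. Its log2 difference was -0.04 with a standard error of 0.11 and a 95% interval from -0.29 to 0.21, so that both intervals leave out a change of 1.5-fold.

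Irs1, the adaptor below the receptor, had the next largest difference after Igf2 and came close to the study's fold threshold without reaching it. On the log2 scale Irs1 was at 6.16, 6.62 and 5.81 on control 1, 2 and 6, and 5.30, 5.92 and 5.68 on noise 2, 3 and 4. Control 2 was the highest and noise 2 the lowest array, and noise 3 lay above control 6, so that the groups overlapped. The means were 6.20 ± 0.41 (SD, n = 3) and 5.63 ± 0.31 (SD, n = 3). The log2 difference was -0.57 with a standard error of 0.23 and a 95% interval from -1.11 to -0.03, or 1.48-fold lower. It was -0.36 without control 2 and -0.76 without control 6.

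Among the binding proteins, Igfbp2 had the largest difference, and a single control array carried most of it. Igfbp2 had log2 values of 7.32, 6.34 and 6.25 on control 1, 2 and 6, and 6.16, 6.30 and 6.15 on noise 2, 3 and 4. Control 1 stood 1.02 above the mean of the other control arrays, and those arrays overlapped with the noise arrays. The log2 difference was -0.43 with a standard error of 0.27 and a 95% interval from -1.05 to 0.19, and without control 1 it was -0.09.

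Igfbp5, a binding protein that also attaches to the extracellular matrix, was the only gene besides Igf2 whose groups did not overlap. Its log2 values were 7.25, 7.11 and 7.09 on control 1, 2 and 6, and 6.77, 7.03 and 6.98 on noise 2, 3 and 4. The gap between the groups was narrow, and the log2 difference was -0.22 with a standard error of 0.11 and a 95% interval from -0.48 to 0.03. Leaving out 1 array at a time gave -0.28 to -0.14.

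The other binding proteins overlapped between the groups. Igfbp4, which is cleaved by Pappa to free its ligand, had log2 values of 6.45, 6.46 and 6.65 on the control arrays and of 6.78, 6.67 and 6.63 on the noise arrays, with a log2 difference of 0.17 and a standard error of 0.10. Igfbp3, the main carrier in blood, had 5.97, 5.75 and 6.25 against 5.51, 5.97 and 6.02, with a log2 difference of -0.16 and a standard error of 0.18. Igfbp6, which prefers Igf2 over Igf1, had 5.10, 5.27 and 5.44 against 5.36, 5.35 and 5.34, with a log2 difference of 0.08 and a standard error of 0.11. The 3 noise arrays of Igfbp6 lay inside the range of the control arrays.

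Over the family, 6 genes had a negative and 4 a positive log2 difference, and 6 of the 10 lay within 0.2 of 0. The median difference was -0.10, beside 0.01 over all clusters, whose quartiles were -0.11 and 0.12. The control array with the highest level was control 1 for 5 genes, control 6 for 3 and control 2 for 2, so that the genes did not follow a single order of arrays. All 10 genes had means above the array median of 5.05.

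**Figure D2:**
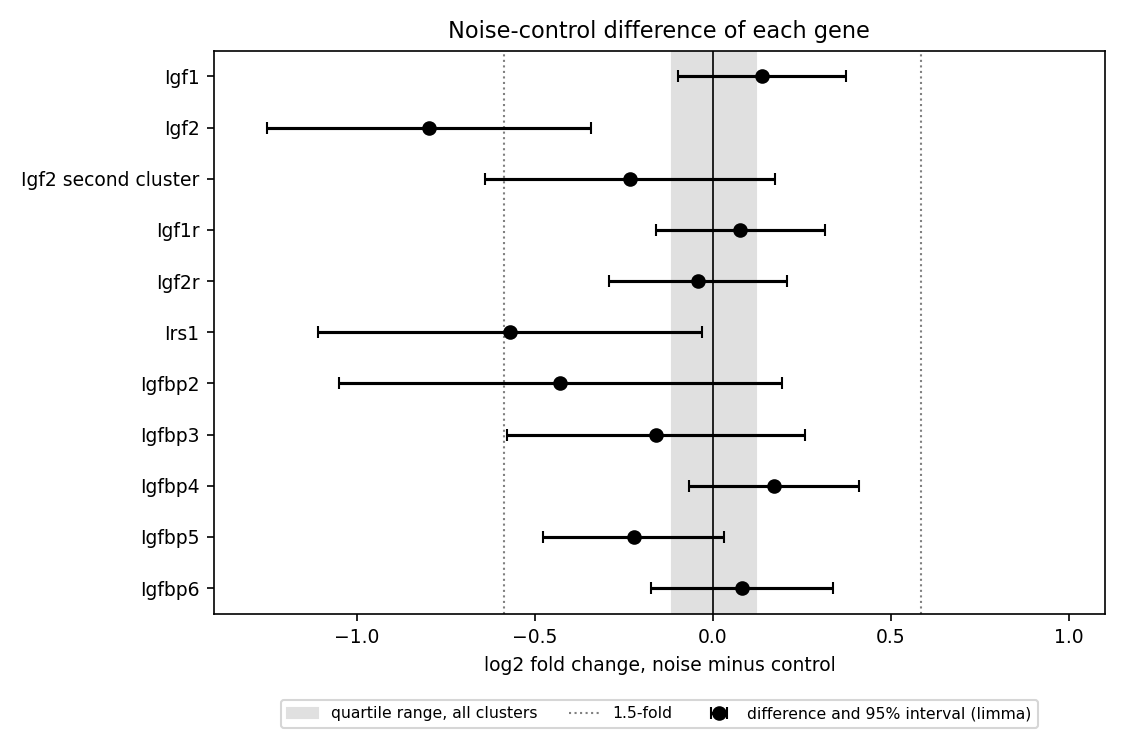
Log2 fold change, noise minus control (horizontal axis), of the 10 genes and the second Igf2 cluster, with 95% intervals from limma over 6 arrays, the range between the quartiles of all clusters in grey and 1.5-fold as dotted lines. Igf2 lies at -0.80 and Irs1 at -0.57, with intervals below 0, and the intervals of the other genes include 0.

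A gene counted as changed in the study when its fold change reached 1.5 and its unadjusted p was 0.05 or less. All clusters were fitted in limma, which fits a linear model per cluster and borrows variance information across them, and at these thresholds 260 clusters (0.882%) were lower and 171 (0.58%) higher in the noise group. Of the 10 genes, 1 was lower (Igf2) and 0 were higher. Groups that did not overlap were seen with lower noise arrays in 8.06% of all clusters and with higher noise arrays in 8.45%, and in the family for 2 genes (Igf2 and Igfbp5) and 0 genes. Since the family was selected on this contrast, nothing is read from these counts. After Benjamini-Hochberg adjustment over all clusters in limma, 3 clusters (0.0102%) passed 0.05, and none was of the family. An exact permutation of 3 arrays against 3 has no p under 0.1, whatever the values.

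The pathway around the family was described through 62 other genes, of which 57 had a cluster. Of these 57, 1 was lower at the study's thresholds (Kl), 0 were higher and 56 did not pass, with a median log2 difference of -0.05. None passed an adjusted p of 0.05 in limma, and 3 had an unadjusted p of at most 0.05. Noise arrays lay wholly below control arrays for 9 of them and wholly above for 1, beside 8.06% and 8.45% of all clusters, and nothing particular to the pathway is read from these counts. Sh2b1, Rheb, H19, Mest and Sgce were not matched to a cluster.

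None of 10 genes that bind the growth factors or control access to them passed the thresholds, and their median log2 difference was -0.10. Igfals, the acid-labile subunit of the circulating complex, had a log2 difference of -0.32 with a standard error of 0.13 (adjusted p = 0.47, limma). Its values were low, from 4.02 to 4.07 on the control arrays and from 3.49 to 3.95 on the noise arrays. Igfbp7 and Igfbpl1, relatives of the binding proteins, had log2 differences of -0.14 and -0.17 without overlap of the groups. Igfbp1, which lies beside Igfbp3 in the genome, had 0.17.

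Of 11 receptors and adaptors, Kl alone passed the thresholds. Kl encodes Klotho, a coreceptor of Fgf23 that has also been linked to insulin and IGF signalling in mice, and it is a marker of the choroid plexus as well. Its log2 values were 8.52, 7.27 and 5.58 on control 1, 2 and 6, and 4.78, 4.44 and 4.72 on noise 2, 3 and 4. The control arrays were spread over a wide range, and all lay above the noise arrays. This gave a log2 difference of -2.48 (standard error 0.63, limma adjusted p = 0.36). The insulin receptor Insr had a log2 difference of -0.02 and Irs2, the adaptor closest to Irs1, had 0.08, with overlapping groups.

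None of 21 genes of the PI3K, Akt and mTOR arm passed, with a median log2 difference of -0.01 and all 21 above the array median. The kinase gene Akt2 had a log2 difference of 0.21, with noise arrays from 7.39 to 7.61 and control arrays from 7.20 to 7.36. The catalytic subunits Pik3ca and Pik3cb had -0.14 and -0.17 without overlap. None of the 3 genes for proteins that bind Igf2 mRNA had a mean above the array median. Igf2bp2 among them had a log2 difference of -0.26 (adjusted p = 0.48, limma). Of 12 imprinted growth genes and neighbours of Igf2, 0 passed, 6 were negative and 6 positive, and Plagl1, a transcription factor of the imprinted gene network in mice, had the largest at 0.39.

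**Figure D3:**
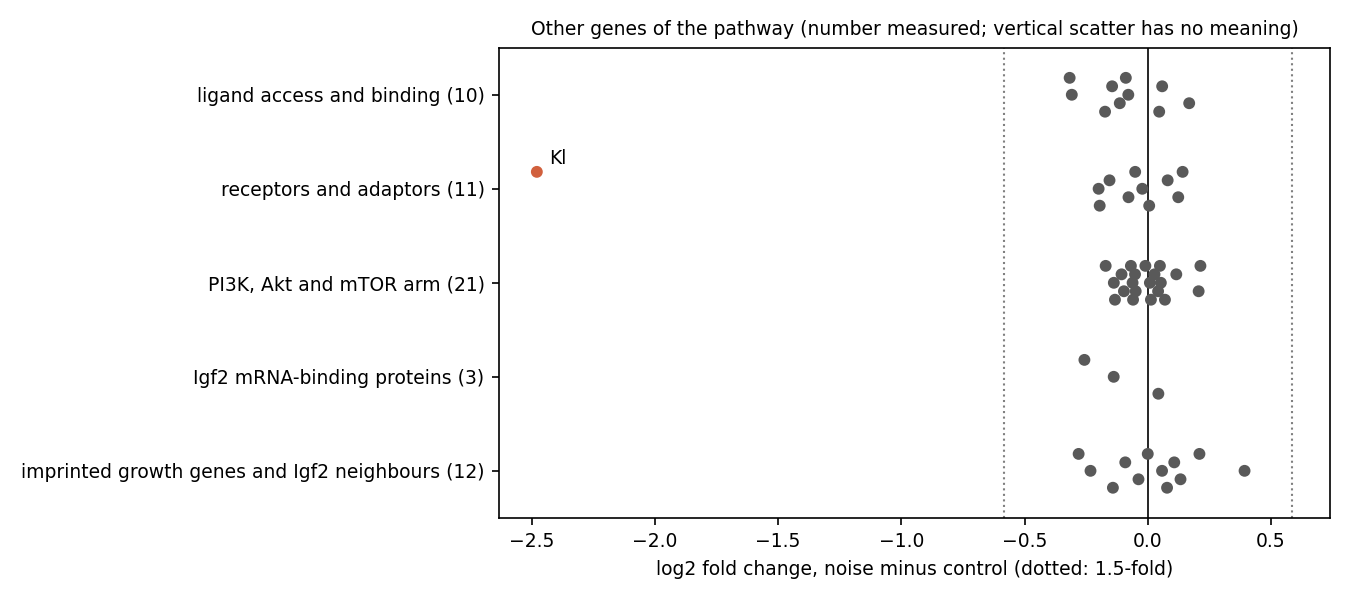
Log2 fold change, noise minus control (horizontal axis), of the 57 other pathway genes in 5 lists, 1 point per gene, with 1.5-fold as dotted lines and vertical scatter only to separate points. Kl at -2.48 is the single gene past the study's thresholds, and the other 56 lie inside the dotted lines.

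The locus of Igf2 gave further readings that the choice of the family did not use. Mir483 lies within the span of Igf2 on the same strand in RefSeq GRCr8 and encodes a microRNA. Its mature sequences are shown because the clusters of the host gene and of the microRNA gene had log2 differences of opposite sign. The groups overlapped for Mir483, and the sign of its difference is not established. Capitals mark the seed, bases 2 to 8.
rno-miR-483-3p: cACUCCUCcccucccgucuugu
rno-miR-483-5p: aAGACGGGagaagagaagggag

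The 2 arms had different seeds. The Mir483 cluster had log2 values of 6.53, 6.80 and 5.99 on control 1, 2 and 6, and of 6.80, 7.06 and 6.62 on noise 2, 3 and 4. The noise arrays were higher on average, but the groups overlapped, with a log2 difference of 0.39 and a standard error of 0.21 (adjusted p = 0.57, limma). The cluster reads the microRNA gene and does not tell the arms apart. Ins2, the insulin gene beside Igf2, had 4.83, 4.45 and 4.76 against 5.20, 4.19 and 4.64, with a log2 difference of -0.0003 and a standard error of 0.24 (adjusted p = 0.9998, limma). Mir483 was picked out after its values had been seen.

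Markers of tissue next to the hippocampus moved with the groups. All 25 measured choroid plexus markers were negative and 12 passed the thresholds, with a median log2 difference of -0.66. The list includes genes that the study selected on these arrays, so that its direction is not independent evidence. Its mean log2 level was 6.85, 6.38 and 5.52 on control 1, 2 and 6, and 5.13, 5.06 and 5.30 on noise 2, 3 and 4. Ttr, the transthyretin gene and a defining marker of that epithelium, had a log2 difference of -4.26 with means of 10.6 and 6.31, and Otx2, Kl and Kcnj13 had -2.56, -2.48 and -2.36. No detection calls were used, so that no marker can be said to be at 0.

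For both Igf2 and the choroid plexus list, every control array lay above every noise array. Their order of the control arrays, each a single pool, was not the same. Control 1 was highest in both. Control 6 was above control 2 for Igf2 (7.91 against 7.69) and below it for the list (5.52 against 6.38). Single markers of the list also differed in their order of arrays: Otx2 was higher on control 2 (8.45) than on control 1 (7.90). Without both control 1 and control 2, which leaves control 6 alone in its group, the log2 difference of Igf2 was -0.69, and that of Irs1 was -0.18. The choroid plexus list on control 6 was above its highest noise array, at 5.52 against 5.30. This mean hides wider gaps of single markers: Ttr was at 9.08 on control 6 and from 5.09 to 7.47 on the noise arrays. Noise arrays lay wholly below control arrays for 14 of the 25 markers and wholly above for 0, and the rest overlapped. The shares over all clusters were 8.06% and 8.45%. Igfbp2 and the second Igf2 cluster were high on control 1 and not on control 2. The part of the choroid plexus in these differences was not tested.

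The leptomeninges, the other tissue in which Igf2 is known to be expressed in rodents, did not move together. Of 18 measured markers 1 passed as lower, 9 were negative and 9 positive, and the median log2 difference was -0.02. The passing gene was Fmod, a collagen-binding proteoglycan, with a log2 difference of -0.93 and a standard error of 0.21 (adjusted p = 0.33, limma). The list means were 5.98, 5.87 and 5.88 on control 1, 2 and 6, and 5.72, 5.97 and 5.77 on noise 2, 3 and 4, and so overlapped. Noise arrays lay wholly below control arrays for 3 of the markers and wholly above for 0, beside 8.06% and 8.45% of all clusters. The 3 were Fmod, Tbx18 at -0.36 and Slc6a20 at -0.30. With overlapping groups, Ogn had -0.40 and Lum -0.33, and the fibroblast collagens Col1a1 and Col3a1 had 0.19 and 0.02. The part of the leptomeninges in the difference of Igf2 was not tested.

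Of 11 markers of thalamus and medial habenula, 10 were negative and 1 positive. At the study's thresholds 8 were lower and 0 higher, led by Chrna3 at -1.17, Slitrk6 at -1.15, Zic1 at -1.09 and Gpr151 at -0.91. This list too holds genes that the study selected here. Its means ran from 5.43 to 5.97 on the control arrays and from 4.88 to 5.16 on the noise arrays. Their part in the differences of the family was likewise not tested. No marker of endothelium (9 measured), mural cells (9), microglia (14), astrocytes (10), excitatory hippocampal neurons (11) or interneurons (10) passed the thresholds. Noise arrays lay wholly below control arrays for 3 markers of endothelium, 2 of mural cells, 1 of microglia and 1 of excitatory neurons. They lay wholly above for 4 of microglia and 1 of interneurons. The shares over all clusters were 8.06% below and 8.45% above. The endothelial list means, from 6.63 to 6.70 on the control arrays and from 6.46 to 6.58 on the noise arrays, did not overlap. All 11 markers of excitatory hippocampal neurons were above the array median, and their list means ran from 9.13 to 9.29 and from 9.07 to 9.21.

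**Figure D4:**
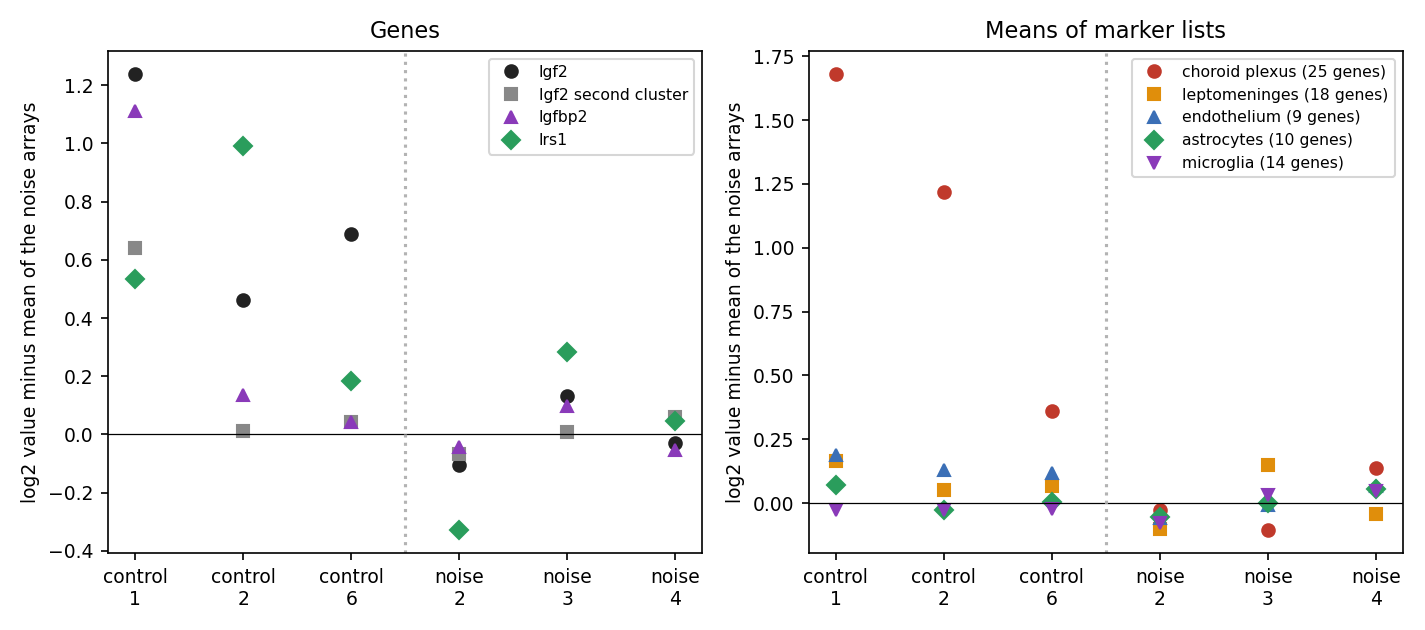
Log2 values minus the mean of the 3 noise arrays (vertical axes) on each of the 6 arrays, for 4 clusters on the left and for the means of 5 marker lists on the right. The second Igf2 cluster and Igfbp2 are high on control 1 alone. The choroid plexus mean, whose single markers differ in their order of arrays, is high on control 1 and control 2 and less so on control 6. The other lists stay within 0.2 of 0.

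The clusters most like Igf2 over the 6 arrays were ranked by Pearson's r, as a description in which all points share the same 6 arrays and the same group difference. Of 20755 clusters with 1 symbol, 52 had an r above 0.95. The first 5 were Abhd15 and Cacybp, each at 0.99, Tfrc, the transferrin receptor, at 0.99, Atp6v0a2, a subunit of the vacuolar proton pump, at 0.98, and Commd5 at 0.98. Their own log2 differences were smaller than that of Igf2, from -0.32 for Tfrc to -0.11 for Abhd15.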

How the data were processed

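The authors processed the scans in GeneSpring GX by RMA (Robust Multi-Array Average, which corrects background, equalises quantiles and summarises probes) and deposited log2 values. These were used unfiltered. All arrays had the same quartiles, with a median of 5.05, and pairs of arrays correlated at 0.981 to 0.9905 across clusters. The annotation build of the clusters is not given in the sources used here. The authors' fold changes, log ratios and p-values, whose headings name another comparison, were not used, nor was the annotation block beside them. All 29489 clusters (20757 with 1 symbol, 768 with several, 7964 with none) were fitted with limma 3.58.1 (lmFit, eBayes) in R 4.3.3, with the group as the only term and 3.47 prior degrees of freedom, and p-values were adjusted by the Benjamini-Hochberg method. The fit was checked on simulated data. Precision is limited by the number of arrays. The p-values weigh the group difference against the spread between pools, moderated over all clusters.

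Members and lists were chosen with earlier results of these data known. The text names all members, up to 4 genes past the thresholds of each list and the 5 clusters most like Igf2, and other list genes and Mir483 after their values were seen. Promoter and microRNA sequences are RefSeq's for GRCr8, and all 10 genes matched. Alternatives tried were aligned medians, renewed quantile normalization, values of the series matrix, a trended and robust variance, array weights, brighter clusters only, the methods' t-test, no fold threshold, the mean over both Igf2 clusters, leaving out each array and, chosen with the data known, leaving out control 1 and control 2 together. The values of 1 listed gene are not reported here.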

Additional observations from a re-analysis of the deposited data

How the results depend on the processing

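Igf2 kept its negative log2 difference under every alternative, from -0.96 to -0.58 when single arrays were left out. The count of family genes lower at the thresholds ranged from 0 to 2 when single arrays were left out: it was 0 without control 1, where Igf2 missed the fold threshold, and 2 without control 6 or noise 3, where Irs1 joined. It was 2 with array weights and 2 with no fold threshold. Over all clusters, the count of lower and higher calls was 89 and 56 among brighter clusters only, which leaves fewer clusters to test. It was 151 and 100 with the methods' t-test, and 1503 and 1482 with no fold threshold. It ran from 247 to 405 lower and from 180 to 322 higher when single arrays were left out, both highest without noise 4, and 307 were higher without control 1 and control 2. Other pathway genes had 3 lower calls with no fold threshold, and 0 to 1 higher and 1 lower when single arrays were left out. Except where a setting shows it, the cause was not tested. Igf2r and Igfbp6 changed sign in 2 of 12 alternatives each and Igfbp3 in 1. Leaving out control 1 and control 2 left control 6 alone in its group. The log2 difference was then 0.19 for Igf1r, 0.04 for Igfbp4, -0.08 for Igfbp6 and -0.18 for Irs1. No paired analysis was run, because neither the labels nor the methods describe pairs between the groups. With 3 pools a group the intervals of variable genes were wide, from -1.05 to 0.19 for Igfbp2, and dim clusters such as the second one of Igf2 can hold background signal.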
